A study of Mus musculus with 39 samples.

Results

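The genes described here encode the proteins of the cytosolic ribosome. They were chosen by name: symbols made of Rpl or Rps and a number, with at most one closing a, x, l or k, plus Rpsa, Rplp0, Rplp1 and Rplp2, with pseudogene symbols left out. The rule found 82 genes, 50 of the large and 32 of the small subunit, among 24946 genes used. It misses other genes of the ribosome, such as Rps3a1, Rpl36al, Rpl22l1, Rpl7l1, Fau and Rack1, which were read apart. Messenger RNA was sequenced from endothelial cells, the cells that line blood vessels, pulled from whole brains of C57BL/6 mouse pups on beads coated with an antibody to PECAM. The study deleted 1 of 3 genes of BMP signalling in endothelium, as models of a hereditary vessel disorder, and asked how the cells' transcripts changed.

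Smad4 mutants carried Smad4f/f; Cdh5-CreERT2 and Smad4 wild types Smad4f/f without Cre, with tamoxifen at 300 µg on postnatal days 1, 2 and 3 and collection on day 7. Alk1 mutants were Alk1f/f; Cdh5-CreERT2 and Alk1 wild types Alk1f/f, with tamoxifen at 100 µg on day 4 and collection on day 6. Eng mutants were Engf/f; Cdh5-CreERT2 and Eng wild types Engf/f, dosed and collected as the Smad4 pups were. These 6 groups had 5 libraries each. Smad4 mutants given 30 µg of IgG, Smad4 mutants given 30 µg of LC10, an Ang2 inhibitor, and Smad4 wild types given IgG, on days 2 and 4, had 3 libraries each. In all there were 39 libraries in 9 groups. Cre is driven by the endothelial Cdh5 promoter and no wild type carried it, so the effect of Cre and that of the deletion cannot be told apart. No label says that the libraries of a group came from separate animals, so p-values measure only the spread between these libraries.

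A ribosome pairs a small subunit, which holds the messenger RNA and reads its codons, with a large subunit, which joins amino acids and threads the growing chain through an exit tunnel. Each ribosomal protein is needed about once per ribosome, and their genes are among the most actively transcribed of a cell. Their messages carry a pyrimidine tract at the very 5′ end that lets growth signals set their translation together. When subunits are not assembled in balance, free ribosomal proteins such as those of Rpl5 and Rpl11 bind Mdm2 and let p53 accumulate, and p53 in turn activates genes that include Rps27l.

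Start regions are shown for Rps27l, the one member called in all 4 comparisons, and its paralog Rps27, for Rpl18, called in 3 comparisons, and for Rpsa and Rps2, which rose most in Alk1 mutants among the abundant members. Each sequence is the gene's own strand, 5′ to 3′, with 70 bases before and 30 bases from the start that RefSeq annotates on GRCm38.p6. Capitals mark CTTTCC on the gene's strand, letters at a pyrimidine tract, or CCGGAAG on either strand, the core bound by ETS factors. The positions are chr9:66946016-66946115 (+) for Rps27l, chr3:90213619-90213718 (-) for Rps27, chr7:45718001-45718100 (+) for Rpl18, chr9:120127696-120127795 (+) for Rpsa and chr17:24719993-24720092 (+) for Rps2.
Rps27l: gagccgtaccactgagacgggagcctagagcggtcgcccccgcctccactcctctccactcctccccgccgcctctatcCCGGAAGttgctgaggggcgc
Rps27: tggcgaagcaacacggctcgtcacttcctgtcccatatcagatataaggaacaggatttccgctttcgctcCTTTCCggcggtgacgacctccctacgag
Rpl18: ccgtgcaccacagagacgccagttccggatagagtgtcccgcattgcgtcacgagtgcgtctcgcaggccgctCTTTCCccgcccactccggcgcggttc
Rpsa: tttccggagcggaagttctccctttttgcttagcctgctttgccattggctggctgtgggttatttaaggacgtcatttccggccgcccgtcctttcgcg
Rps2: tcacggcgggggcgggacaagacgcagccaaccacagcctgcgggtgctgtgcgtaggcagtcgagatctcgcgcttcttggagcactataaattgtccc

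Of the 82 members 61 had such a region in the RefSeq table. Over its whole length of 250 bases before and 50 after a start, CTTTCC stood on the gene's strand in 25 of the 61 members (41.0%), against 4328 of all 27025 genes with a region (16.0%). The letters CCGGAAG stood on either strand in 25 of the 61 (41.0%), against 9.93% of all genes. In the stretches printed, Rps27 and Rpl18 hold CTTTCC close to the start and Rps27l holds CCGGAAG just after it. Rpsa and Rps2 hold neither. The same stretches of Rps19, Rplp0 and Rpl3l were read but are not printed, and they hold neither. A match is a description of letters and says nothing of a factor's binding.

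The deposited values are normalized, not whole reads, and summed to about 25445000 to 42737000 per library, with 16105 to 17683 genes above 0. These sums are not a sequencing depth, which is unknown here. Smad4 itself stood at 1676 to 1916 in the Smad4 mutants, against 5258 to 5903 in their wild types, and Eng at 8613 to 11508 in the Eng mutants, against 60151 to 70402 in theirs. Acvrl1, the gene of ALK1, overlapped at 12441 to 15809 in the Alk1 mutants and 14197 to 16755 in their wild types, and the labels do not say which exons are removed. The 10 endothelial markers were all detected and summed to 12160 to 15220 ppm of the library's sum. None of the 10 neuron, 10 pericyte, 10 microglia, 7 astrocyte or 8 oligodendrocyte markers was at 0 throughout a group. Transcripts typical of other brain cells were thus present, and whether the cells themselves were carried along was not tested. In such bulk samples fewer cells of a type and less RNA per cell cannot be told apart.

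The ribosomal genes together made up 2.49 to 3.32% of the summed values of a library. Levels between genes are compared in ppm per kilobase of the shortest principal transcript in GENCODE M21, averaged over the 4 wild-type groups. Rps12, a protein of the small subunit's head, came first at 902, followed by Rpl38 at 856 and Rpl31 at 753, both at the large subunit. Rps6, the S6 kinase substrate, stood at 717, Rpl32 at 704 and Rps9 at 703, and the median of the 80 members with a length was 448. These levels depend on the annotated length, which was 3706 bases for Rps20. The members above 100 ran from 105 for Rps20 to 902 for Rps12, and 8 fell under 100. These were Rpl34 at 81.2, Rps27l at 65.7, Rps27 at 22.7, Rpl30 at 17.5, Rpl26 at 14.8, Rpl39l at 0.765, Rpl3l at 0.025, and Rpl10l, which was listed at 0 in every library. Rps27rt and Rpl34-ps1, copies by name that the rule leaves out, averaged 9429 and 6714 in normalized value in Smad4 wild types. How reads were shared between members and copies is not known, so the low levels of Rps27 and Rpl34 are uncertain.

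The ribosomal share differed between mutants and wild types without overlap in 2 of the 4 comparisons. It was 3.06 to 3.32% in Eng mutants, against 2.78 to 2.89% in Eng wild types, and 2.70 to 3.04% in IgG-treated mutants, against 2.52 to 2.67% in IgG-treated wild types. In the Smad4 cohort 4 mutants lay at 3.05 to 3.21%, above all wild types at 2.83 to 3.02%, and mutant 3 lay below them at 2.67%. In the Alk1 cohort the groups overlapped, at 2.54 to 3.22% in mutants and 2.49 to 2.97% in wild types. The LC10-treated mutants had 2.68 to 2.87%. The large and small subunits kept nearly the same ratio, 1.43 ± 0.02 in Smad4 mutants and 1.44 ± 0.03 in Smad4 wild types, and 1.40 ± 0.03 in Alk1 mutants and 1.44 ± 0.02 in Alk1 wild types (SD, n = 5 each).

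**Figure D1:**
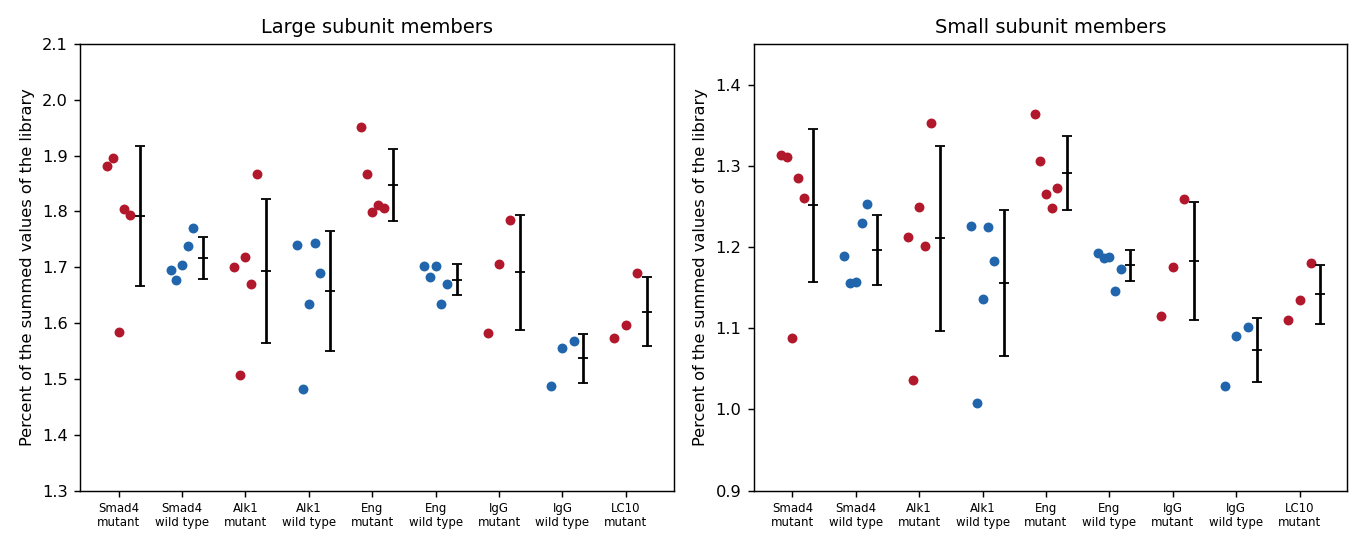
Share of the summed values of each library, in percent, taken by the large (left) and small (right) subunit genes; points are libraries, red for mutants and blue for wild types, and bars are the mean ± SD, on axes that do not start at 0. The 5 Eng mutants lie above the 5 Eng wild types in both panels, and Smad4 mutant 3 lies below the Smad4 wild types.

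In Smad4 mutants 17 of the 79 ribosomal genes tested rose and none fell, in limma with Benjamini-Hochberg adjustment over all 14012 genes tested and a threshold of 0.05. Of all genes tested, 17.2% were called higher and 15.8% lower, so the share that rose was close to that background while no member was among the genes that fell. Calls took in 10 of 47 large and 7 of 32 small subunit genes. Of the members' changes 87.3% were above 0, where 49.2% of all genes were. No member had an unadjusted p under 0.05 on the lower side. The median change was 0.10 on the log2 scale for the large and 0.09 for the small subunit, against -0.01 for all genes, and both medians turned slightly negative (-0.02 and -0.03) under quantile normalization.

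Rps27l rose most among the called members. It had 2203, 2103, 1721, 2653 and 2416 in Smad4 mutants, against 972, 853, 1004, 1167 and 1216 in Smad4 wild types, a log2 change of 1.09 ± 0.12 (SE, limma, adjusted p = 9.95e-05). Every mutant stood well above every wild type. Rpsa, a small subunit protein at the mRNA exit side that also occurs as a laminin receptor, had 31391, 30183, 28419, 32430 and 31535 in mutants, against 23315, 24798, 22543, 26303 and 26630 in wild types (0.32 ± 0.06, adjusted p = 0.00353). Here too the groups did not overlap. Rplp0, the base of the large subunit's stalk, had 37114, 37749, 33469, 42989 and 43923 in mutants, against 27261, 30232, 28522, 32625 and 32920 in wild types (0.36 ± 0.09, adjusted p = 0.00974), with the lowest mutant just above the highest wild type. Rps19, needed to mature the 18S RNA and the gene most often mutated in Diamond-Blackfan anaemia, rose by 0.45 ± 0.12 (adjusted p = 0.0161), with mutant 3 at 10008 inside the wild-type range of 8320 to 11228. Rpl4, Rpl29, Rpl18 and Rps26 each rose by 0.18 to 0.25 with no overlap of the groups. Every mutant stood above every wild type in 8 members in all, where 12.6% of all genes did so.

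Rpl41 (0.41 ± 0.16, adjusted p = 0.0598) and Rps2 (0.47 ± 0.19, adjusted p = 0.071) had larger estimates than most called members and missed the threshold. Rpl30 (-0.15 ± 0.27) and Rps16 (-0.05 ± 0.09) had the lowest estimates of the 2 subunits. Libraries 4 and 5 of both groups carry the code L146 in their column names and were higher in Rps2, Rpl41 and Rps6 than the others, within mutants and within wild types, apart from Rpl41 in mutant 3. Within L146 alone 39 members rose, where 22.9% of all genes did. Among the libraries with no code 17 rose, where 9.46% of all genes did. Mutant 3 weighed most on the count: without it 38 members rose, where 20.5% of all genes did. Without mutant 4, wild type 1 or wild type 2 the count was 10, 11 or 11, where 13.1, 13.9 or 14.1% of all genes rose.

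In the same libraries 8 of 10 neuron markers were called lower and summed to 67.1 to 166 ppm in Smad4 mutants, against 122 to 227 ppm in Smad4 wild types. Of 10 pericyte markers 5 were called lower, with sums of 456 to 1501 ppm in mutants, against 1741 to 2464 ppm in wild types, and of 5 erythroid markers tested 4 were, with 321 to 568 ppm in mutants, against 959 to 1397 ppm in wild types. The part of the pericyte and erythroid levels in the result was not tested. With the neural marker level as a covariate 4 members rose, Rps27l, Rpsa, Rpl29 and Rps26, where 8.37% of all genes were called higher, and the small subunit median was -0.01. Division of each library by its sum left 9 calls, where 12.1% of all genes were called higher. Quantile normalization left 6 members higher and 1 lower, where 15.9% of all genes were called higher. Rps27l and Rpsa kept their calls in all 21 alternatives run, Rpsa with adjusted p up to 0.0493.

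In Alk1 mutants 7 of 79 ribosomal genes tested rose and none fell, where 17.5% of the 13635 genes tested were called higher and 15.7% lower. The share called higher was thus below the background: 3 of 47 in the large and 4 of 32 in the small subunit rose. None had an unadjusted p under 0.05 on the lower side. Of the members' changes 86.1% were above 0, where 48.6% of all genes were. The medians were 0.11 and 0.08 on the log2 scale, against -0.01 for all genes. Under quantile normalization they turned to -0.02 and -0.04, and 4 members were called higher and 2 lower. With that scaling 15.5% of all genes were called higher.

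Rps2, at the site where messenger RNA enters, had 27211, 27522, 32393, 28764 and 35488 in Alk1 mutants, against 19576, 20252, 19816, 23743 and 21799 in Alk1 wild types (0.52 ± 0.09, SE, limma adjusted p = 0.00085). Rpsa had 29840, 31297, 35878, 31518 and 34478 in mutants, against 24822, 23125, 25380, 24810 and 24304 in wild types (0.41 ± 0.07, adjusted p = 0.000617). Neither overlapped, and both calls held in all 21 alternatives run. Rplp1, an acidic stalk protein, rose by 0.31 ± 0.07 (adjusted p = 0.00475), with 12416 to 15192 in mutants, against 9756 to 11223 in wild types. Rps27l had 1485, 1077, 1440, 1395 and 1650 in mutants, against 1108, 916, 905, 1247 and 1089 in wild types (0.42 ± 0.12, adjusted p = 0.0192), and mutant 2 lay within the wild-type range. Rpl41, the smallest protein of the large subunit, rose by 0.37 ± 0.13 (adjusted p = 0.0479) and Rps6 by 0.23 ± 0.08 (adjusted p = 0.0323), both with overlap, and each lost its call in 12 of the 21 alternatives. Rplp1 lost its call in 3 and Rps27l in 4. Every mutant stood above every wild type in 4 members, where 13.3% of all genes did so. Rpl34 (-0.11 ± 0.50) and Rps4l (-0.17 ± 0.12) had the lowest estimates and were not called.

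The seventh call was Rpl3l, a form of Rpl3 made in heart and skeletal muscle. It had 20.2, 76.1, 74.8, 54.7 and 41.1 in Alk1 mutants, against 2.73, 0, 0, 6.41 and 1.39 in Alk1 wild types, a log2 change of 3.84 ± 0.50 (limma, adjusted p = 0.000132). It passed the filter on low values only through the Alk1 mutants, so it had to differ to be tested, and its call adds no support to the count. In Smad4 mutants it had 8.44, 8.61, 2.09, 33.6 and 24.5, against 0, 0, 2.35, 0 and 0 in Smad4 wild types, and it was too low to be tested there. Eng mutants had 0 to 4.43 and Eng wild types 0 to 6.90, and no IgG or LC10 library exceeded 3.40. Rpl3, its widely expressed paralog, did not pass the test in Alk1 mutants (0.11 ± 0.07, adjusted p = 0.236). Rpl3l lies at chr17:24727820-24736143 on the plus strand, downstream of Rps2 at chr17:24718116-24721929 on the same strand (GENCODE M21), and whether reads of one reached the other was not tested.

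Division by the library sum left 4 calls in the Alk1 cohort, where 13.7% of all genes were called higher. Leaving out wild type 3 or mutant 3, 4 or 5 also left 4, where 15.7, 16.1, 15.4 and 16.3% of all genes were. Centring on the ribosomal median gave 3 higher and 1 lower, where 9.28% of all genes were called higher. The libraries with no code gave 3 and those coded L219 gave 7, where 8.5 and 16.5% of all genes were called higher. Alk1 neuron markers summed to 32.9 to 55.8 ppm in mutants, against 47.3 to 126 in wild types, and 2 of 9 were called lower. Of 5 erythroid markers 4 were called lower, with sums of 457 to 698 ppm in Alk1 mutants, against 1246 to 2028 ppm in Alk1 wild types, without overlap. Of 4 smooth muscle markers 2 were lower, with 19.4 to 41.1 ppm in mutants, against 49.0 to 65.9 ppm in wild types. Of 10 pericyte markers 2 were lower, with 1741 to 3419 ppm in mutants, against 2714 to 3395 ppm in wild types. Endothelial markers summed to 12160 to 13320 ppm in Alk1 mutants, against 13400 to 14740 ppm in Alk1 wild types, without overlap. Of these 10 markers 3 were called higher and 1 lower. The part of the erythroid, smooth muscle, pericyte and endothelial levels in the result was not tested. Taking the neural marker level as a covariate gave 10 calls, all higher, where 18.1% of all genes were called higher.

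In Eng mutants 30 of 78 ribosomal genes tested rose and none fell, where 12.4% of the 14350 genes tested were called higher and 9.08% lower. Calls took in 19 of 46 large and 11 of 32 small subunit genes. Of the 78 changes 77 were above 0, where 46.8% of all genes were. The medians were 0.12 and 0.11 on the log2 scale, against -0.01 for all genes, and stayed between 0.08 and 0.14 under library-sum and quantile scaling and with any library left out. Every mutant stood above every wild type in 24 members, where 10.2% of all genes did so. On the lower side the one unadjusted p under 0.05 was that of Rps7 (-0.12 ± 0.05, adjusted p = 0.113), a small subunit protein that can bind Mdm2.

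Most changes were small, but those of Rps27l and Rpl26 were not. Rps27l had 2908, 2535, 2721, 2403 and 2608 in Eng mutants, against 1520, 1451, 1418, 1379 and 1273 in Eng wild types (0.90 ± 0.06, SE, limma adjusted p = 1.81e-06). Rps2 had 35142, 33557, 33150, 31799 and 33490 in mutants, against 25770, 26389, 26945, 24709 and 27276 in wild types (0.35 ± 0.04, adjusted p = 7.5e-05). Rps19 had 17222, 16437, 15919, 16036 and 17584 in mutants, against 13466, 13882, 14135, 13299 and 13492 in wild types (0.28 ± 0.04, adjusted p = 0.000196). In all 3 the groups were wide apart for their spread. Rpl41 rose by 0.28 ± 0.04, Rpsa by 0.27 ± 0.04, Rplp0 by 0.24 ± 0.04, Rpl19 by 0.24 ± 0.04 and Rpl18 by 0.16 ± 0.03, again with no overlap, and their adjusted p lay between 0.000362 and 0.00182. Rpl26 had the largest change of the large subunit, 0.99 ± 0.29 (adjusted p = 0.0279), on values of 329 to 626 in mutants, against 124 to 299 in wild types. Rpl35a had the smallest of that subunit, 0.02 ± 0.05.

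Rps27l, Rpsa, Rplp0 and Rpl19 kept their Eng calls in all 20 alternatives run, and Rpl18 in 19, losing it (0.02, adjusted p = 0.583) when centred on the ribosomal median. The count fell to 18 without wild type 4 or mutant 1, where 10.9 and 10.7% of all genes were called higher. It fell to 6 of 80 in 1 fit of the 30 untreated libraries, which share 1 estimate of the spread. In that fit 7.01% of all genes were called higher, so the members' share was close to the background, with their median change again 0.12. Centred on the ribosomal median, 8 members lay above and 7 below it with an adjusted p under 0.05, where 5.48% of all genes lay above. Eng markers of neurons summed to 70.9 to 222 ppm in mutants, against 116 to 139 ppm in wild types, with none called. With the neural level as a covariate 21 members were higher and 1 was lower, where 11.6% of all genes were higher. Of 6 erythroid markers 3 were called lower, with sums of 451 to 765 ppm in Eng mutants, against 670 to 1151 ppm in Eng wild types, and 3 of 10 endothelial markers were called lower, with 13130 to 13820 ppm in mutants, against 13540 to 14650 ppm in wild types. Their part in the result was not tested.

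**Figure D2:**
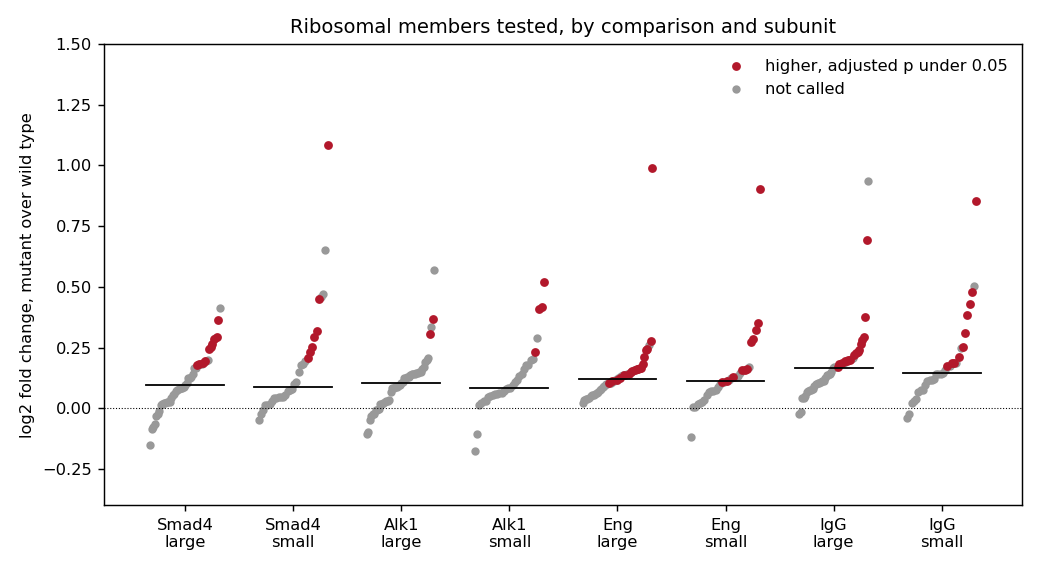
Log2 fold change, mutant over wild type, of every ribosomal gene tested in each of the 4 comparisons, large and small subunit apart; points are genes in rising order, red where called higher, and the black line is the median. Rpl3l in the Alk1 cohort, at 3.84, lies above the axis, the medians lie between 0.08 and 0.17, and no gene was called lower.

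In IgG-treated Smad4 mutants 26 of 78 ribosomal genes tested rose and none fell, where 13.2% of the 14052 genes tested were called higher and 10.8% lower. Calls took in 16 of 46 large and 10 of 32 small subunit genes, and the medians were 0.17 and 0.14 on the log2 scale, against 0.00 for all genes. No member had an unadjusted p under 0.05 on the lower side. Of the members' changes 94.9% were above 0, where 50.5% of all genes were. Every mutant stood above every wild type in 44 members, where 22.2% of all genes did so with 3 libraries a group.

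Rps27l had 1612, 2011 and 2307 in IgG-treated mutants, against 1017, 1085 and 1150 in IgG-treated wild types (0.85 ± 0.11, SE, limma adjusted p = 0.00124). Rps19 had 11623, 13191 and 14510 in mutants, against 9437, 10033 and 9644 in wild types (0.43 ± 0.07, adjusted p = 0.00365). Rpl41 had 10440, 11259 and 11698 in mutants, against 9079, 8900 and 7757 in wild types (0.38 ± 0.07, adjusted p = 0.00457). In these 3 genes the mutants stood clear of the wild types, and the 3 calls held in all 16 alternatives run. Rpl12 at the stalk's foot, Rpl13, Rpl18 and Rps18 rose by 0.19 to 0.25, and Rpl30 by 0.69 ± 0.18 (adjusted p = 0.0223), while Rpsa missed the threshold (0.25 ± 0.08, adjusted p = 0.0547). Rpl30 was low, averaging 16.3 ppm per kilobase in IgG-treated mutants and 10.4 in IgG-treated wild types. It lost its call in 4 of the 16 alternatives. Rpl26 (0.94 ± 0.34, adjusted p = 0.0698) had the largest estimate, on values of 242 to 310 in mutants, against 77.8 to 226 in wild types. Rpl21 (-0.02 ± 0.06) and Rps29 (-0.04 ± 0.06) had the lowest.

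Mutant 1 was the lowest IgG-treated mutant in all 3 of these genes. Without it 43 members rose, where 14.8% of all genes did. Without mutants 2 or 3 the count was 12 or 11, where 7.35 or 8.28% of all genes were called higher. Without wild types 1, 2 or 3 it was 14, 10 or 15, where 9.66, 9.14 or 10.2% of all genes were. It was 8 with the neural marker level as a covariate, where the members' median change was 0.17, against 0.15 without it, and 6.66% of all genes were called higher, against 13.2%. The count was 16 after division by the library sum and 15 after quantile normalization, where 10.6 and 12.7% of all genes were called higher. Centring on the ribosomal median gave 4 higher and 4 lower, where 4.53% of all genes were called higher. Of 10 pericyte markers 7, and of 10 microglia markers 9, were called lower in these mutants. Pericyte markers summed to 1137 to 2195 ppm in mutants, against 2346 to 3166 ppm in wild types, and microglia markers to 338 to 523 ppm in mutants, against 574 to 1104 ppm in wild types. Endothelial markers summed to 13870 to 14050 ppm in IgG-treated mutants, against 14060 to 14520 ppm in IgG-treated wild types. Of these 10 markers 2 were called higher and 1 lower. The part of the pericyte, microglia and endothelial levels in the result was not tested.

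LC10-treated Smad4 mutants stand in a separately normalized table whose wild types are not analysed here, so only levels are given. Rps27l was at 1750, 1682 and 1670, Rpsa at 19264, 18892 and 21638 and Rps19 at 10353, 9954 and 10305. In ppm per kilobase, Rps12 averaged 892 ± 76.1 and Rpl38 753 ± 37.7 in LC10-treated mutants (SD, n = 3).

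**Figure D3:**
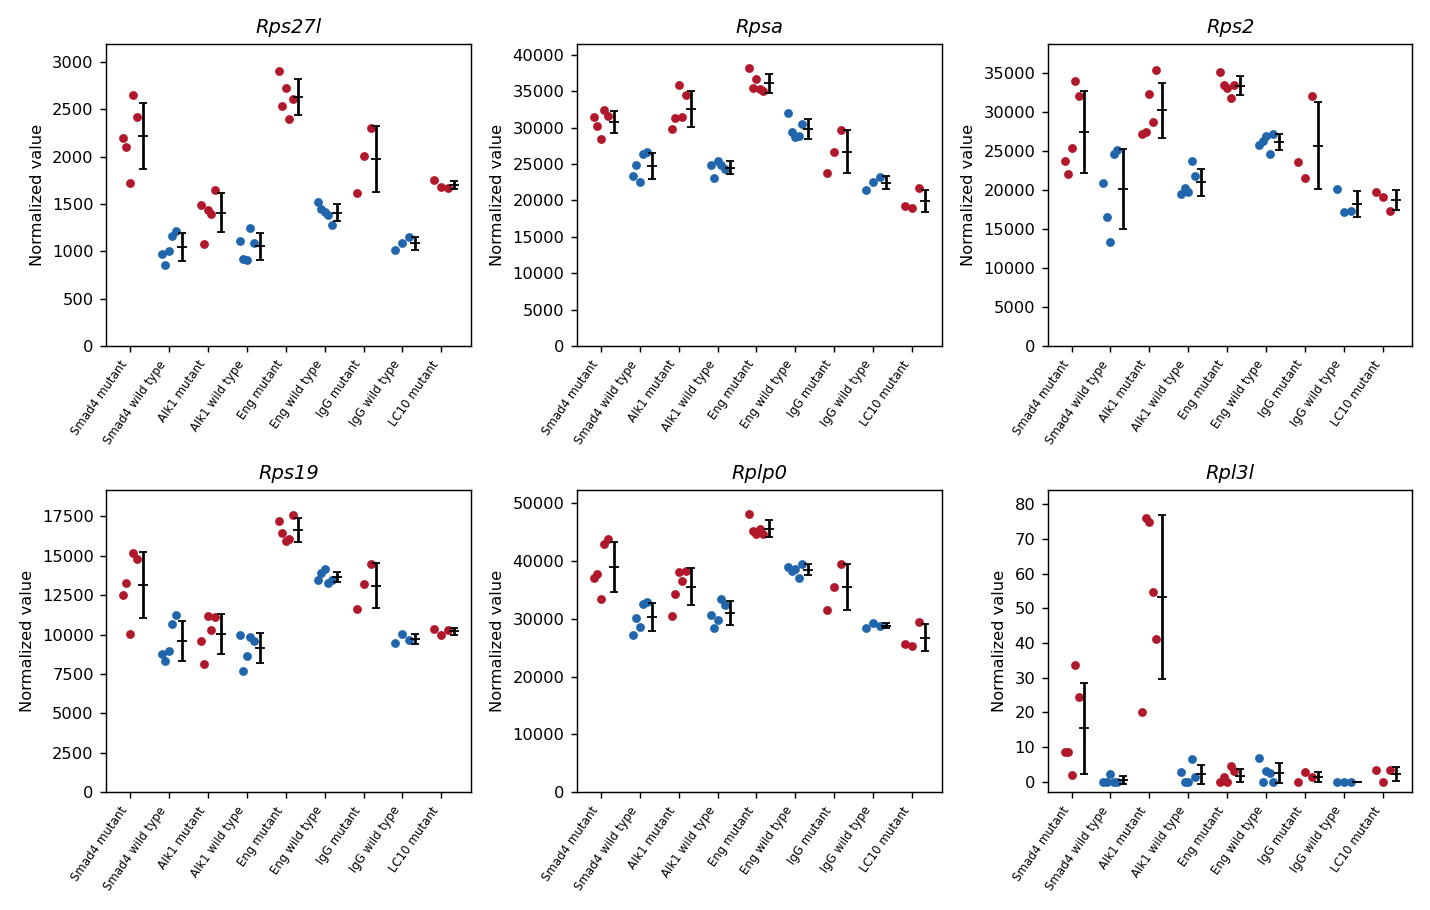
Normalized value of 6 ribosomal genes in every library, with mutants in red to the left of their wild types in blue; bars are the mean ± SD, and each cohort and antibody was normalized apart, so heights compare only within a cohort. Rps27l mutants stand above all wild types of their cohort except for Alk1 mutant 2, and Rpl3l exceeds 10 in all 5 Alk1 mutants and in 2 Smad4 mutants only.

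Across the 4 comparisons, 78 ribosomal genes were tested in all, of which 61 had estimates above 0 in all 4, and every one was above 0 in at least 1. The Smad4 and IgG comparisons share a genotype but no library. Only Rps27l was called in all 4, and 13 members were called in 3, among them Rps2, Rpl41, Rps19, Rpsa, Rplp0, Rpl19, Rpl29, Rps18, Rpl4, Rpl18, Rpl10a and Rpl6. A further 6 were called in 2 and 25 in 1, and 37 were called in none, 2 of which were too low to be tested anywhere. How often genes at large recurred in this way was not counted, either for calls or for estimates above 0. Whether such recurrence is particular to the ribosomal genes was therefore not tested. The size of the change was compared between cohorts in 1 limma fit of all 30 untreated libraries. The rise of Rps27l was larger in the Smad4 than in the Alk1 cohort, by 0.67 ± 0.16 (adjusted p = 0.00402), and smaller in the Alk1 than in the Eng cohort, by -0.49 ± 0.16 (adjusted p = 0.0389); the second call held in 13 of 27 alternatives.

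The rise of Rpl3l was larger in the Alk1 than in the Eng cohort, by 4.01 ± 0.79 (adjusted p = 0.00095), and in the Smad4 than in the Eng cohort, by 2.69 ± 0.79 (adjusted p = 0.0339); the second call held in 14 of 27 alternatives. Of 80 members tested 1 differed between the Smad4 and Alk1 effects, 1 between Smad4 and Eng and 2 between Alk1 and Eng, where 15.9%, 8.04% and 14.5% of all genes did so. The members' counts lay below those shares. Rpl3l entered this fit through the Alk1 mutants, which are high in it, so its differences add no support to these counts. Without Smad4 mutant 3, 3 members differed between Smad4 and Alk1 and 2 between Smad4 and Eng. There 18.2 and 12.4% of all genes differed, also more than in the main fit. Without Smad4 mutant 4 these counts were 2 and 0, where 15.4 and 5.72% of all genes differed. Without Alk1 mutant 4 the first was 2, where 14.7% of all genes differed. Between Smad4 and Eng 0 members, Rpl3l included, differed without any 1 of Smad4 wild types 1, 2 and 5, Smad4 mutant 5, Eng wild types 1, 3 and 4 or Eng mutants 1, 2 and 3. In those fits 5.46 to 7.44% of all genes differed. Between Alk1 and Eng 1 differed without any 1 of Alk1 wild types 1, 4 and 5, Alk1 mutants 2, 3 and 4, Eng wild types 3, 4 and 5 or Eng mutants 1, 2, 3 and 5. In those fits 11.2 to 13.9% of all genes differed. The Alk1 pups also differed in tamoxifen dose and day of collection.

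By role, the 4 stalk genes, which recruit elongation factors, had changes above 0 in all comparisons, as did 61 of the 78 members tested throughout. Of these Rplp0 and Rplp1 rose in Smad4 mutants, Rplp1 in Alk1 mutants, and Rplp0 and Rpl12 in Eng and in IgG-treated mutants. Rplp2 was not called in any. Rpl5 and Rpl11, which carry the 5S RNA and bind Mdm2, were called once between them, as Rpl11 in Eng mutants (0.15 ± 0.03, limma adjusted p = 0.00722). In Smad4 mutants Rpl5 changed by 0.08 ± 0.08 and Rpl11 by 0.02 ± 0.09. Of the 3 proteins that line the exit tunnel, Rpl4 rose in Smad4, Eng and IgG-treated mutants, while Rpl17 and Rpl39 were not called. At the tunnel's rim, where chaperones and the signal recognition particle dock, Rpl19 rose in the same 3, Rpl35 in Smad4 and IgG-treated mutants and Rpl23a and Rpl26 in Eng mutants, and Rpl22, Rpl31 and Rpl38 were not called.

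In the small subunit, Rps2, Rps3, Rps10, Rps12 and Rps20 lie at the mRNA entry and head. Of these 4 rose in Eng mutants, all but Rps20, with changes of 0.11 for Rps3 and Rps10, 0.16 for Rps12 and 0.35 for Rps2. Only Rps2 rose in Alk1 and in IgG-treated mutants, and none was called in Smad4 mutants. At the mRNA exit side and platform Rpsa and Rps26 rose in Smad4 mutants, Rpsa in Alk1 and in Eng mutants and Rps28 in IgG-treated mutants, and Rps14 was called in none. Rps15 and Rps23, next to the decoding centre, were called in none. Rps6 rose in Alk1 mutants and in Eng mutants (0.16 ± 0.04, adjusted p = 0.0123). Of the ubiquitin fusion genes, Rps27a and Fau rose in IgG-treated mutants. Of 16 members linked to Diamond-Blackfan anaemia, an inherited failure of red cell formation, 2, 0, 5 and 2 rose in Smad4, Alk1, Eng and IgG-treated mutants, a share above that of all genes called higher (17.2, 17.5, 12.4 and 13.2%) in Eng mutants and below it in the other 3.

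Some members have a near copy elsewhere in the genome. GENCODE M21 lists 291 pseudogenes named after a ribosomal gene, and how reads that map to several places were counted is not given in the sources used here, so levels of members with such copies are uncertain. Rps27 was erratic: it had 135, 456, 107, 104 and 106 in Smad4 mutants, against 105, 109, 76.8, 103 and 81.2 in Smad4 wild types, and 76.1, 67.2, 358, 350 and 841 in Eng mutants, against 507, 1293, 69.7, 99.3 and 65.1 in Eng wild types. Libraries of 1 group thus differed up to many-fold, and it was called in no comparison. Its median coefficient of variation within a group was 84.8%, against 6.39% over all members. The others above 20% were Rpl3l, Rpl26, Rpl32l, Rpl39l and Rpl34. Rps27rt, a copy of Rps27 by name, averaged 9100 in Smad4 mutants and 9429 in Smad4 wild types.

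Among the paralogs, Rps4l, annotated as a transcribed pseudogene, rose in Eng mutants (0.32 ± 0.09, limma adjusted p = 0.0278) and in IgG-treated mutants (0.38 ± 0.12, adjusted p = 0.0433), and Rps4x, the X-linked parent, was not called in any comparison. Rpl39l, known from testis, was at 7.81 to 48.1 in Smad4 mutants and 12.8 to 32.4 in Smad4 wild types and was not called there. Rpl32l stayed under 29 in every library. Outside the name rule, Rpl7l1 rose in Smad4 (0.22 ± 0.06), Eng (0.13 ± 0.03) and IgG-treated mutants (0.15 ± 0.04), and Rpl36al in Smad4 and Eng mutants (0.23 ± 0.06 and 0.21 ± 0.05). Rpl22l1 was called in none.

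Genes that build ribosomes or serve translation were read beside the ribosomal genes and the shares of all genes called higher, 17.2% in Smad4, 17.5% in Alk1, 12.4% in Eng and 13.2% in IgG-treated mutants. Of 40 ribosome biogenesis genes 32 rose in Smad4, 3 in Alk1, 32 in Eng and 31 in IgG-treated mutants and none fell, with medians of 0.31, 0.12, 0.26 and 0.33 on the log2 scale. Npm1, a nucleolar chaperone, rose by 0.40 ± 0.05, 0.41 ± 0.09, 0.45 ± 0.05 and 0.41 ± 0.09 in the 4 comparisons, and Nop58, a core protein of box C/D particles, by 0.49 ± 0.06, 0.48 ± 0.05 and 0.51 ± 0.07 in Smad4, Eng and IgG-treated mutants. Of 78 mitochondrial ribosomal genes 14, 4, 18 and 15 rose in Smad4, Alk1, Eng and IgG-treated mutants, and 2 fell in Alk1 mutants, so their share was close to that of all genes in Smad4 mutants and below it in Alk1 mutants. Of 38 initiation factors 17, 13, 13 and 14 rose and 1 fell in Eng mutants, with Eif5a and Eif4a1 higher in all 4. Of 15 elongation factors and other genes with a 5′ pyrimidine tract 8, 1, 5 and 6 rose and none fell. Eef2, which moves the ribosome along the message, rose in Smad4 mutants (0.23 ± 0.06) and Pabpc1 in Smad4 and Eng mutants (0.30 ± 0.06 and 0.20 ± 0.04). Whether these lists differ from the ribosomal genes was not tested.

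**Figure D4:**
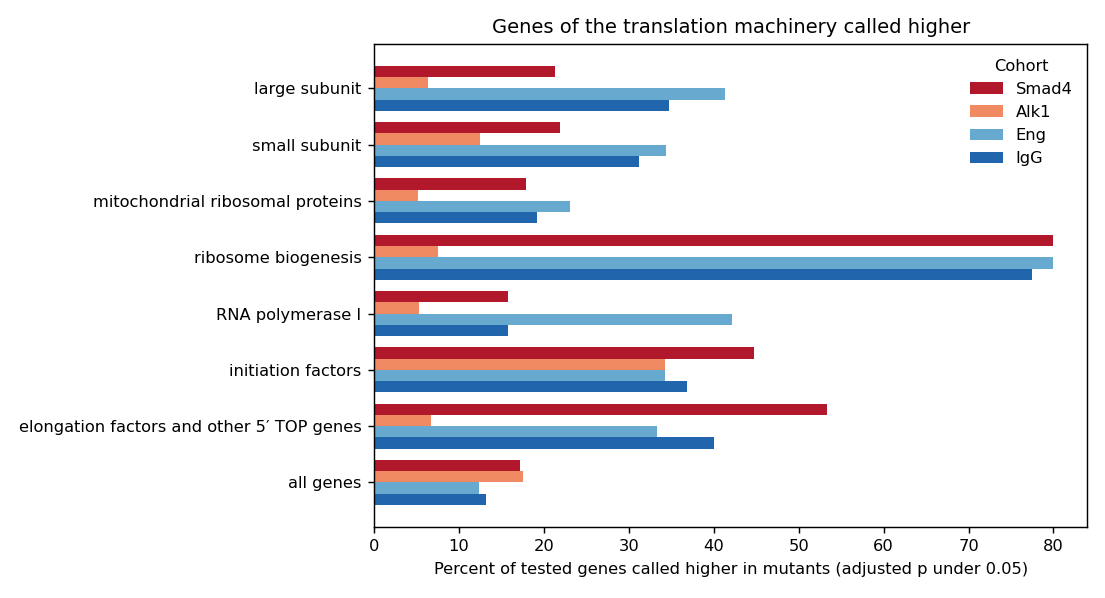
Percent of the tested genes of each list called higher in mutants, by cohort, with all genes tested at the bottom. Ribosome biogenesis bars reach 32, 32 and 31 of 40 genes in the Smad4, Eng and IgG cohorts and 3 of 40 in the Alk1 cohort.

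Of 19 genes of RNA polymerase I and its cofactors, which transcribe the large ribosomal RNAs, 3, 1, 8 and 3 rose and 1 fell in Alk1 mutants; Polr1a, the largest subunit, rose in Smad4 (0.44 ± 0.11), Eng (0.24 ± 0.06) and IgG-treated mutants (0.35 ± 0.07). Among 17 regulators of ribosome synthesis, Mycl fell in Smad4 (-1.37 ± 0.14), Alk1 (-1.16 ± 0.09), Eng (-0.83 ± 0.09) and IgG-treated mutants (-1.05 ± 0.10). Myc rose in Eng mutants alone of the 4 (0.41 ± 0.12, limma adjusted p = 0.0263), a difference between cohorts that was not tested. Eif4ebp1, a brake on cap-dependent translation, rose in Smad4, Alk1 and Eng mutants (0.55 ± 0.17, 1.39 ± 0.14 and 0.47 ± 0.07). Of 12 targets of p53, among which Rps27l was not counted, 12, 9, 11 and 12 rose and none fell, with medians of 1.54, 0.46, 1.54 and 1.29 on the log2 scale. Phlda3 rose by 3.42 ± 0.09, 1.66 ± 0.13, 3.35 ± 0.07 and 3.21 ± 0.21 in Smad4, Alk1, Eng and IgG-treated mutants.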

How the data were processed

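Libraries of bead-purified brain endothelial cells were made with a TruSeq RNA v2 kit, as the labels' protocols state. The genome build was mm10, per the submitters' processing notes. The aligner, the counter and how values were scaled: not given in the sources used here. The deposited tables, 1 per cohort and antibody, hold a normalized signal per gene, although the labels name raw counts: low values are not whole reads, so no count test was used. Each table had 24972 genes, of which 26 with duplicated or date-like names were left out. Columns of untreated cohorts were joined to groups by name only, so replicate numbers there follow file order, and 3 columns that match no sample were not used.

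Each cohort was fitted with limma 3.58.1 (R 4.3.3, intensity trend) on log2(value + 2) over genes that reached 20 in 5 or more libraries (3 or more for the antibody groups, where LC10 mutants helped estimate the spread), with Benjamini-Hochberg adjustment; folds understate low genes. Differences between cohorts came from 1 fit of all 30 untreated libraries. Shares and figures were made with Python 3.11.15. The fits were tested on simulated data with known changes. A change of 1.25-fold was recovered in 22, 12, 37 and 22% of 100 genes in the Smad4, Alk1, Eng and IgG fits. One of 1.5-fold was recovered in 51, 51, 75 and 58%. Small changes were thus often missed, so a member that was not called is not shown to be unchanged. Counts of calls do not compare the cohorts at equal power. Named genes are the targeted genes, the 3 of highest level per subunit, the 4 of smallest adjusted p and the extremes per subunit and comparison, paralogs, role lists, and leading genes of other lists; Rpl3, Rpl6, Rpl10a, Myc and Eef2 were added after their values were seen. The members and all lists were chosen with earlier results of these data known. Alternatives covered the pseudocount, filter, scaling, covariates, library codes and each library left out. Results of some genes are not reported here.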

Additional observations from a re-analysis of the deposited data

Results flagged for a closer look

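In groups of 5 libraries, 1 library lay far from the other 4 for its group's range in 26 of 354 cases examined; chance gives about 5% of groups. Smad4 mutant 3 held the low value in the ribosomal share, 2.67% against 3.05 to 3.21% in the other mutants, in the small subunit share at 1.09%, and in Rpl23a (11496), Rpl5 (17004), Rps12 (13538), Rps23 (8620), Rps3 (13728) and Rps4x (19087). Another Smad4 mutant was high in Rps27 (456), and 1 Smad4 wild type was alone above 0 in Rpl3l (2.35).

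In the Alk1 cohort, 1 mutant each was apart in Rpl3 (31322), Rpl30 (169) and Rps27 (316), and 1 wild type each in Rpl18 (8701), Rpl31 (9678), Rpl39l (29.8), Rplp1 (9756), Rps27 (230), Rps29 (6209) and Rps3 (13783). In the Eng cohort, 1 mutant each was apart in Rpl21 (18092), Rplp0 (48151), Rplp1 (14551) and Rps20 (19475), and 1 wild type each in Rplp1 (13083) and Rps15 (12262).

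The change of Rps27l differed between the Smad4 and Alk1 cohorts by 0.67 and between Alk1 and Eng by -0.49 on the log2 scale, in the limma fit of the untreated libraries. That of Rpl3l differed between Smad4 and Eng by 2.69 and between Alk1 and Eng by 4.01. Rpl3l passed the filter of that fit only through mutants that are high in it, so its differences add no support. Its Smad4 against Eng call held in 14 of 27 alternatives. The causes were not tested.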

How the results depend on the processing

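Counts of ribosomal genes called were 17, 7, 30 and 26 in the Smad4, Alk1, Eng and IgG cohorts, and pseudocounts of 1 or 10 or no filter left them within 1.5 times. Leaving out 1 library gave 10 to 38, 4 to 10, 18 to 24 and 10 to 43, with no member called lower. The share of all genes called higher then ran from 13.1 to 20.5, 15.2 to 18.5, 10.3 to 12.9 and 7.35 to 14.8%. In the Smad4 cohort division by the library sum gave 9, quantile normalization 7, centring on the ribosomal median 4 and the neural covariate 4. A joint fit gave 26, the library code as a term 26 and code L146 alone 39 (an alternative chosen after seeing the data). In the same order 12.1, 15.9, 6.88, 8.37, 20.1, 22.8 and 22.9% of all genes were called higher. In the Alk1 cohort the library sum gave 4, centring 4, the joint fit 17, the code term 11 and libraries with no code 3. There 13.7, 9.28, 20.3, 19.3 and 8.5% of all genes were called higher. In the Eng cohort centring gave 15 and the joint fit 6, where 5.48 and 7.01% of all genes were called higher. In the IgG cohort the library sum gave 16, quantile normalization 15, centring 8, the neural covariate 8 and the IgG libraries alone 12. There 10.6, 12.7, 4.53, 6.66 and 9.67% of all genes were called higher. A replicate block in the IgG cohort gave 38, or 17 with the IgG libraries alone, where 14.1 and 8.82% of all genes were called higher. Equal numbers correlated at 0.04, 0.02 and -0.07, which gives no sign of pairing but cannot settle whether they pair libraries. Untreated columns carry no numbers from the labels. For differences between cohorts, leaving out 1 library gave 1 to 3 calls for Smad4 against Alk1 (1 in the main fit). It gave 0 to 2 for Smad4 against Eng (1) and 1 to 2 for Alk1 against Eng (2). The share of all genes that differed then ran from 13.9 to 18.9, 5.46 to 12.4 and 11.2 to 18.8%. A pseudocount of 10 gave 2 and 0 for the first pairs, where 15.8 and 8.12% of all genes differed. Centring gave 2 for Smad4 against Alk1 and the neural covariate 0 for Smad4 against Eng, where 10.2 and 5.63% did. For Alk1 against Eng no filter gave 1 and quantile normalization 5, where 9.64 and 15% of all genes differed. The large subunit median reversed under quantile normalization to -0.0196 in the Smad4 and -0.0185 in the Alk1 cohort, the small subunit median to -0.0321 and -0.0448, and to -0.011 with the neural covariate in the Smad4 cohort. Rps20 in the Smad4 cohort reversed to -0.13 (quantile) and Rpl34 to 0.62 (L146 alone). In the Eng cohort, centred on the ribosomal median by construction, Rpl29 came to -0.0318, Rpl35a to -0.12, Rps10 to -0.0287, Rps14 to -0.12, Rps29 to -0.11, Rps3 to -0.0227, Rpl10a to -0.0116, Rpl6 to -0.0198 and Rps9 to -0.13. The causes of the other changes were not tested. Depth is unknown, so no counting error can be given.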
